A study of Mus musculus with 8 samples.

Results

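The data compare the RNA of mouse CD8+ T cells of 2 genotype labels after 24 h of activation in culture. One label, dKO, stands for mice in which a Cd8-driven Cre recombinase acts on floxed alleles of both Nr4a1 and Nr4a2, so that the deletion is confined by the promoter to cells with Cd8 activity. The other label, WT, stands for wild-type littermates; the labels do not say whether these carry the Cre. Naive CD8+ T cells of both kinds were stimulated with anti-CD3 at 2 µg/ml and anti-CD28 at 1 µg/ml, with IL2 at 10 ng/ml. All 4 libraries at 24 h, 2 of each label, were used, out of 8 in the series, whose other 4 were taken at 48 h. The table holds 24976 gene symbols. Of these, 12149 had enough counts at 24 h to be tested and 11433 of the tested genes lie on the 19 autosomes. The genes described were chosen by 3 conditions: an autosomal position, both libraries of one label above both of the other, and a mean of at least 20 counts over the 4 libraries. These conditions held for 4610 genes, 2343 with both dKO-labelled libraries higher and 2267 with both lower. The separation of the libraries was therefore part of the choice and is given as a description only.

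Nr4a1, Nr4a2 and Nr4a3 encode orphan nuclear receptors that bind DNA and are transcribed within hours of a signal through the T cell receptor. The receptors have been tied to tolerance and exhaustion of CD8+ T cells, in part by work that places them in opposition to AP-1 and NF-kB at shared enhancers. Activated CD8+ T cells secrete cytokines and chemokines, load cytotoxic granules, enter the cell cycle and lose part of the expression programme of naive cells.

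Total counts were 6900893 and 5824552 in the WT libraries and 8278058 and 5000952 in the dKO-labelled ones. Where a gene had 0 counts, its level could be as high as 3 counts. That is 0.362 to 0.5999 counts per 1e6 counts (CPM) in these libraries and covers counting error only. Cd8a, a chain of the CD8 coreceptor, stood at 731 to 991 CPM and Cd4 at 0 or 1 count per library. Xist, the RNA that silences one X chromosome in female cells, stood at 799 and 805 CPM in WT against 0.725 and 1.80 CPM in the dKO-labelled libraries. Together the 4 Y-linked genes Ddx3y, Uty, Eif2s3y and Kdm5d summed to 1.45 and 1.55 CPM against 175 and 168 CPM. The genotype label and female-type against male-type RNA thus cannot be told apart at any gene below, autosomal ones included. A further 357 genes, chosen after the values were seen, kept a near-fixed proportion to the muscle gene Csrp3 over all 8 libraries. They took 16.1% of the counts in WT replicate 1 and 10.8 to 11.4% in the other 3 libraries at 24 h. Of the 157 genes described below as changed 0 are among them, which the choice by level and profile largely fixes. The labels do not say that the libraries came from separate animals, so the p-values speak only of the spread among these libraries, which may be technical.

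The targeted genes were not lower in the dKO-labelled libraries. Nr4a1 (chromosome 15: 101254269 to 101274795, GRCm38/mm10) stood at 584 and 303 CPM in WT replicates 1 and 2 and at 581 and 551 CPM in the dKO-labelled libraries, where CPM of single genes is scaled by trimmed-mean (TMM) factors. The WT libraries lie on both sides of the dKO-labelled ones, and the log2 fold change was 0.35 (SE 0.25, adjusted p = 0.579). Its sign turned (log2 -0.044) without WT replicate 2, and without WT replicate 1 it passed the test (log2 0.90, adjusted p = 4.93e-11). Nr4a2 (chromosome 2: 57106830 to 57124003) stood at 66.5 and 54.1 CPM in WT and at 155 and 148 CPM in the dKO-labelled libraries. It rose 2.51-fold (log2 1.33, SE 0.13, adjusted p = 0.00107), and it was called in all alternatives tried. Nr4a3, which was not targeted, stood at 143 and 149 against 151 and 162 CPM (log2 0.10, SE 0.11, adjusted p = 0.733). The counts are per gene and not per exon, so reads from outside the deleted exons cannot be told apart from the rest. These counts therefore do not check the label dKO, which is kept as a label.

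Of the 12149 genes tested, 127 were called higher in the dKO-labelled libraries (1.05%) and 54 lower (0.444%) at an adjusted p under 0.05 in edgeR. By comparison, 22.1% of all tested genes had both dKO-labelled libraries above both WT libraries and 22.8% had both below. These shares of all genes tested are the background for the counts of list members below. Among the described autosomal genes 115 rose and 42 fell, and 60 and 19 of these did so by more than 2-fold. The median log2 fold change was 1.01 for those that rose, -0.96 for those that fell and -0.01 for all genes tested. Another 9 called autosomal genes had a mean under 20 counts, 10 called genes lie on X or Y, and 5 have no position. Just inside the limit on counts were Rab34, Acsl6 and Spats2 with means of 21.75, 23 and 23.25 counts, and just outside were Fgr, Gdpd3 and Axl with 19, 18.5 and 18.

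The number of calls depended on single libraries. Without WT replicate 1 the test called 607 genes higher and 299 lower, without WT replicate 2 it called 379 and 702, and without dKO-labelled replicate 1 it called 70 and 16. In a fit of all 8 libraries, which pools the spread with the 48 h groups, 46 and 9 genes were called, and 45 of the 157 described genes kept their call. Klrd1, Rgs10, Cd200, Bhlhe40, Plk1, Cth, Asns and Hist1h2ap lost theirs in that fit alone of the alternatives run for them. Leaving out the genes in proportion to Csrp3 gave 210 and 134. Of the 157 described genes that were called, 61 were called without each 24 h library in turn and 35 under all alternatives tried, and 0 changed direction under any of them. The plot of difference against level places several cytokine and chemokine genes at the upper edge.

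**Figure D1:**
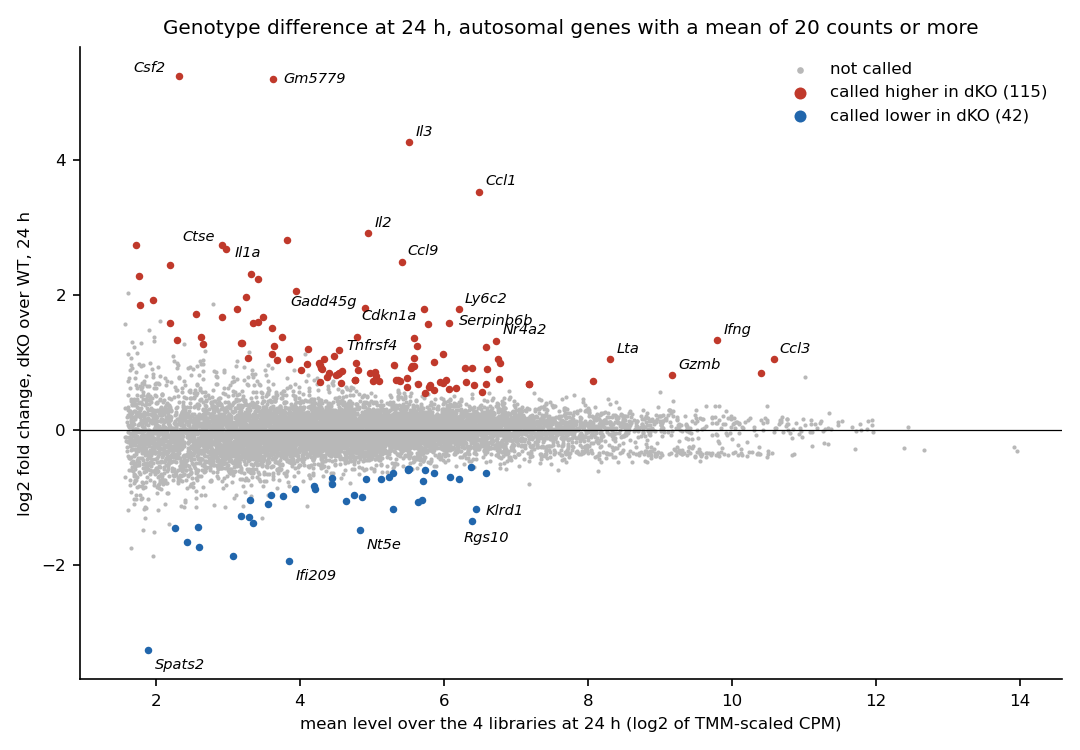
Each point is an autosomal gene with a mean of at least 20 counts, placed by its mean level over the 4 libraries at 24 h (log2 of TMM-scaled CPM) and its log2 fold change, dKO-labelled over WT. Red points are the 115 genes called higher, blue points the 42 called lower, and grey points were not called; Csf2, Gm5779, Il3 and Ccl1 are the highest and Spats2 is the lowest.

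Genes of secreted growth factors for blood cells were among the largest rises. Of 25 interleukin and colony stimulating factor genes listed, 8 were tested, and 4 rose: Il3, Csf2, Il2 and Il1a. Il3 (chromosome 11: 54265303 to 54267277), which encodes a growth factor for myeloid progenitors and mast cells, stood at 4.53 and 4.52 CPM in WT and at 96.6 and 78.0 CPM in the dKO-labelled libraries. This is a rise of 19.3-fold (log2 4.27, SE 0.17, adjusted p = 2.78e-06). Csf2 (chromosome 11: 54247271 to 54249667), the gene of GM-CSF, had 2 and 1 counts in WT against 83 and 48 counts. The ratio of its counts per total was 41.8 (exact 95% counting interval 14.01 to 206, adjusted p = 0.000283). The labels did not overlap at either gene, which the choice of described genes required. The WT libraries of Il3 had 29 and 28 counts. In bulk samples such as these, fewer cells of a type and less RNA per cell cannot be told apart.

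Il2 (chromosome 3: 37120523 to 37125959), which encodes the T cell growth factor that was also added to the medium, stood at 7.49 and 6.95 CPM in WT and at 58.8 and 50.5 CPM in the dKO-labelled libraries. It rose 7.59-fold (log2 2.92, SE 0.16, adjusted p = 2.1e-05). Il1a, which encodes the alarmin interleukin-1 alpha, stood at 1.72 and 2.59 against 15.98 and 11.3 CPM and rose 6.47-fold (log2 2.69, SE 0.30, adjusted p = 0.00263). The other tested members of the list did not pass: Lif, Tgfb1, Osm and Il16 had log2 fold changes of 0.27, 0.16, -0.12 and -0.50. The list's median was 1.48 beside -0.01 for all genes tested. Csf2, with 2 and 1 counts in WT, had enough counts to be tested only through the dKO-labelled libraries. Its presence raises this median and the share of members called.

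The stretch from 250 bases before to 50 bases after the annotated start of Il3, Csf2 and Il2 is shown because these cytokine genes had some of the largest changes and Il3 and Csf2 are neighbours. The sequences come from the RefSeq table of GRCm38.p6, on the minus strand in each case, at chr11:54267230-54267529, chr11:54249850-54250149 and chr3:37125905-37126204. For Csf2 this start lies upstream of the start as GENCODE gives it (54249667), which is outside the window. The bases next to the GENCODE start of Csf2 were therefore not searched. Capitals mark matches, on either strand, to any of 4 motifs chosen with results of these data known: an AP-1 motif (TGANTCA), an NFAT core (GGAAAA), a kappaB motif (GGGA and TTCC with any 2 bases between) and the NR4A monomer site, called NBRE (AAAGGTCA).
Il3: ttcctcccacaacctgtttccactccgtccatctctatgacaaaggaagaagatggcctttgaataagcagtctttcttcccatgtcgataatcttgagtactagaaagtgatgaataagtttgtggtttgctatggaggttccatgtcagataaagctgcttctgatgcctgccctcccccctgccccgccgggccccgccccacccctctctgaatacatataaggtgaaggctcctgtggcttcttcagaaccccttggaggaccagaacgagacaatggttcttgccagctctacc
Csf2: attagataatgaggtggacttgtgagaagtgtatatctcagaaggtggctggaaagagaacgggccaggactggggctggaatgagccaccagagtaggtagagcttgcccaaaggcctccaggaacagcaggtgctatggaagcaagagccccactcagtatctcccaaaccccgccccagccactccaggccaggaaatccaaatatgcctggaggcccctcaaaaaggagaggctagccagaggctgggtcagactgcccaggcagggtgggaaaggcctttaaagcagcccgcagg
Il2: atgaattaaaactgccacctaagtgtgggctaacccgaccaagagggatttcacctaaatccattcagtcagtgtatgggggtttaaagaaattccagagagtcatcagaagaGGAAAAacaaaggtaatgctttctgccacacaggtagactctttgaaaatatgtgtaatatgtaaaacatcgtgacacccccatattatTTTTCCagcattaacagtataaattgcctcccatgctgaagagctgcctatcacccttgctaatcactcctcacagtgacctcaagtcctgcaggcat
Within these windows Il2 held 2 NFAT cores and none of the other motifs, starting 137 and 48 bases before the start, and Il3 and Csf2 held no match. Of 32851 promoters of the same length in the table, 23.4% held the NFAT core, 7.81% the AP-1 motif, 1.51% the NBRE and 1.47% the kappaB motif. Of the 11512 promoters of genes tested at 24 h, the background for the calls, 2423 held the NFAT core, 4.83% the AP-1 motif, 1.04% the NBRE and 1.52% the kappaB motif. In the table, 74 of the 115 genes that rose have 90 promoters, and 36 of the 42 that fell have 52. The NFAT core was in 26.7% of the former and 13.5% of the latter, the AP-1 motif in 10.0% and 11.5%, the kappaB motif in 2.22% and 1.92%, and the NBRE in 0 and 1 promoters. A match is a string of letters and not a bound site, and enhancers outside the windows were not searched.

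Some chemokine genes of the CCL class also rose. Of 17 chemokine genes listed, 8 were tested and 4 rose, with a list median of 0.82, against 1.05% called higher among all genes tested. Ccl1 (chromosome 11: 82176657 to 82305690, a span that reaches far upstream of its RefSeq start), which encodes a ligand of CCR8, stood at 14.2 CPM in both WT libraries and at 171 and 160 CPM in the dKO-labelled ones. It rose 11.6-fold (log2 3.54, SE 0.12, adjusted p = 8.56e-07). Ccl9, which encodes a ligand of CCR1, stood at 11.1 and 14.7 against 80.7 and 64.1 CPM (log2 2.50, SE 0.17, adjusted p = 0.000139).

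Ccl3 and Ccl4, which encode the macrophage inflammatory proteins MIP-1alpha and MIP-1beta, stood at high levels under both labels. Ccl3 stood at 1068 and 916 CPM in WT and at 2052 and 2080 CPM in the dKO-labelled libraries (log2 1.06, SE 0.15, adjusted p = 0.0119). Ccl4 stood at 1040 and 889 against 1660 and 1822 CPM (log2 0.85, SE 0.16, adjusted p = 0.0313). The calls of Ccl3 and Ccl4 were lost without dKO-labelled replicate 1 (adjusted p = 0.158 and 0.276) and without replicate 2 (0.111 and 0.325). Those of Ccl1 and Ccl9 held under each alternative. Xcl1, the gene of lymphotactin, had a log2 fold change of 0.80 (adjusted p = 0.0729), and Ccl5 had -0.11 (adjusted p = 0.77). Ccl20 and Ccl25 had -0.35 and -0.34 (adjusted p = 0.43 and 0.703). Ccl5 and Ccl20 are 2 of the genes in proportion to Csrp3. The promoter of Ccl1 at chr11:82179763-82180062 (minus strand, GRCm38.p6) is shown because Ccl1 had the smallest p of all autosomal genes, with capitals as above.
Ccl1: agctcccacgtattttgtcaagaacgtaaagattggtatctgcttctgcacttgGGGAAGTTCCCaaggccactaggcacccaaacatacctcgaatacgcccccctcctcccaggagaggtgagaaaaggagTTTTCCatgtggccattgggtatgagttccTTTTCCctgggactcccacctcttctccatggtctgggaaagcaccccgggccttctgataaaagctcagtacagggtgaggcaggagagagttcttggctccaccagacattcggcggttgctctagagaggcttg
It held a kappaB motif that reads on both strands and begins 196 bases before the start, and 2 NFAT cores at 117 and 87 bases before it.

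Of interferon gamma and the ligands of the TNF family, 4 of 11 tested rose. All 11, out of 15 listed, had both dKO-labelled libraries above both WT libraries, against 22.1% of all genes tested. The number that passed was 2 without dKO-labelled replicate 1 and in the fit of all 8 libraries, and 8 and 7 without WT replicates 1 and 2. Ifng (chromosome 10: 118441046 to 118445892), the macrophage-activating cytokine of effector T cells, stood at 531 and 478 CPM in WT and at 1320 and 1232 CPM in the dKO-labelled libraries. It rose 2.53-fold (log2 1.34, SE 0.15, adjusted p = 0.00243). Lta, the gene of lymphotoxin alpha, stood at 218 and 196 against 424 and 436 CPM and rose 2.08-fold (log2 1.06, SE 0.13, adjusted p = 0.00449). A microRNA gene, Mir6974, overlaps Lta on the same strand, and how reads were divided between them is not given. Both calls held under each alternative.

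Tnf, which lies next to Lta, stood at 53.2 and 52.7 against 78.0 and 85.1 CPM (log2 0.62, SE 0.11, adjusted p = 0.0243). Tnfsf11, the gene of the osteoclast factor RANKL, stood at 5.78 and 7.27 against 22.4 and 13.7 CPM (log2 1.52, SE 0.26, adjusted p = 0.0246). Both calls were lost without dKO-labelled replicate 1 (adjusted p = 0.0791 and 0.107), and that of Tnf also without replicate 2 (0.133). Tnfsf4, the gene of OX40 ligand, had a log2 fold change of 1.37 at an adjusted p of 0.0536. The remaining members ran from 0.35 (Fasl, the death ligand) to 0.70 (Tnfsf9, the gene of 4-1BB ligand), and the list's median was 0.62.

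**Figure D2:**
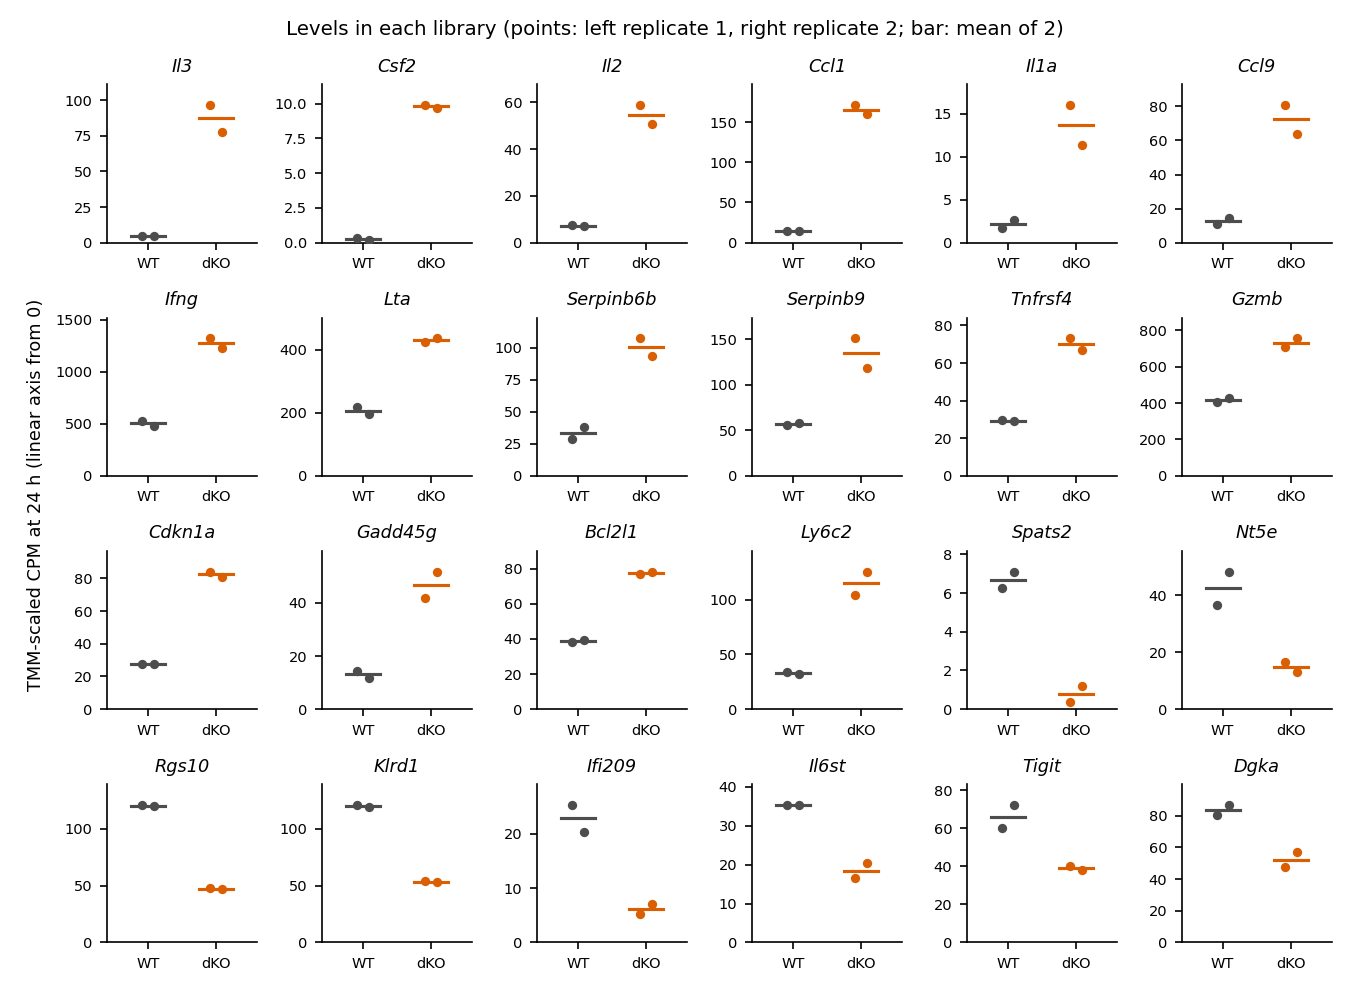
Levels of 24 named genes in each of the 4 libraries at 24 h, in TMM-scaled CPM on linear axes that start at 0; points are single libraries and bars the mean of 2. In no panel do the WT and dKO-labelled points overlap, which the choice of described genes required. The Il3 points sit at 4.53 and 4.52 against 96.6 and 78.0 CPM.

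Cytotoxic granule genes gave 1 call. Of 11 tested, Gzmb rose, and the median was -0.04. Gzmb, which encodes the granule protease granzyme B, stood at 403 and 427 CPM in WT and at 709 and 755 CPM in the dKO-labelled libraries (log2 0.82, SE 0.14, adjusted p = 0.0199). Its call was lost without dKO-labelled replicate 1 or 2 (adjusted p = 0.192 and 0.218). Prf1, the gene of the pore protein perforin, stood at 27.8 and 32.6 against 27.6 and 30.1 CPM, with libraries of both labels interleaved (log2 -0.07, SE 0.14, adjusted p = 0.837).

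Intracellular protease inhibitors rose too. Serpinb9 (chromosome 13: 33003250 to 33017957), which encodes an inhibitor of granzyme B that protects the cell from its own granules, stood at 56.4 and 58.5 CPM in WT and at 151 and 118 CPM in the dKO-labelled libraries. It rose 2.35-fold (log2 1.23, SE 0.14, adjusted p = 0.00261). Its neighbour Serpinb6b stood at 29.0 and 37.97 against 107 and 93.8 CPM and rose 3.01-fold (log2 1.59, SE 0.14, adjusted p = 0.000727). These were 2 of 5 serpins tested, against 1.05% called higher among all genes, and both kept their call under each alternative.

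Receptors at the cell surface gave few calls, in both directions. Among 16 costimulatory receptors tested only Tnfrsf4, the gene of OX40, passed the test. It stood at 29.5 and 29.2 CPM in WT and at 73.1 and 66.7 CPM in the dKO-labelled libraries (log2 1.25, SE 0.11, adjusted p = 0.000727), and held under each alternative. Of the 16, 9 had both dKO-labelled libraries lower and 5 both higher, against 22.8% and 22.1% of all genes tested, and the median was -0.07.

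Of 16 inhibitory receptors and ligands tested, 2 rose and 1 fell. Cd200, whose product restrains myeloid cells, stood at 53.7 and 54.8 against 113 and 92.8 CPM (log2 0.93, SE 0.12, adjusted p = 0.00721). Pdcd1lg2, the gene of the PD-1 ligand PD-L2, stood at 50.3 and 46.0 against 77.5 and 79.9 CPM (log2 0.71, SE 0.11, adjusted p = 0.0146). Tigit, the gene of a receptor that binds CD155, stood at 60.0 and 72.2 against 40.2 and 38.01 CPM (log2 -0.75, SE 0.12, adjusted p = 0.0199). The calls of Pdcd1lg2 and Tigit were lost without dKO-labelled replicate 1 (adjusted p = 0.0605 and 0.0777), and that of Tigit also without replicate 2 (0.0709). Other inhibitory receptors often read as marks of exhaustion did not pass: Pdcd1 had a log2 fold change of 0.32, Lag3 -0.22, Ctla4 -0.35 and Havcr2 1.07, with adjusted p of 0.243, 0.444, 0.37 and 0.216.

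Of 28 cytokine receptor chains tested, 1 fell. Il6st, the gene of the gp130 chain shared by receptors of the IL-6 family, stood at 35.3 and 35.4 CPM in WT and at 16.5 and 20.4 CPM in the dKO-labelled libraries (log2 -0.96, SE 0.14, adjusted p = 0.0142). Its adjusted p was 0.0962 without dKO-labelled replicate 1.

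Klrd1 (chromosome 6: 129591782 to 129598775), which encodes the CD94 chain of NKG2 receptors on NK cells and activated CD8+ T cells, fell. It stood at 121 and 119 CPM in WT and at 53.9 and 53.2 CPM in the dKO-labelled libraries (log2 -1.17, SE 0.10, adjusted p = 0.000727). The call held without each 24 h library but not in the fit of all 8. Klrd1 led a list of NK and gamma delta T cell markers, of which 13 of 16 are in the table and 3 were tested. That list's summed level was 151 and 179 CPM in WT and 97.7 and 86.8 CPM in the dKO-labelled libraries, before TMM scaling. Klrd1 is part of that sum and held most of it in each library, with 776 and 738 counts against 452 and 263. Klrc1 had 131 and 185 counts against 198 and 100, and Klrk1 124 and 114 against 136 and 57. The list's defining members Ncr1, Klra8 and Cd244a were at 0 in all 4 libraries, and 5 others had at most 3 counts in any library. The part of other lymphocytes in the difference was not tested.

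Transcription factors of effector differentiation moved singly. Of 29 tested, 3 rose and the median was -0.05. Runx2 (chromosome 17: 44495987 to 44814797), which encodes a RUNT-domain factor known from bone and from memory CD8+ T cells, stood at 4.68 and 3.07 CPM in WT and at 13.1 and 14.2 CPM in the dKO-labelled libraries. It rose 3.48-fold (log2 1.80, SE 0.24, adjusted p = 0.00721), and Supt3 overlaps it on the opposite strand. Bhlhe40, the gene of a helix-loop-helix factor needed for cytokine output, stood at 11.1 and 15.0 against 24.6 and 30.3 CPM (log2 1.06, SE 0.19, adjusted p = 0.0259). Id2, the gene of an inhibitor of E proteins, stood at 19.7 and 20.5 against 30.8 and 37.6 CPM (log2 0.75, SE 0.15, adjusted p = 0.0403), and without dKO-labelled replicate 2 its adjusted p was 0.145. Eomes had a log2 fold change of 1.13 at an adjusted p of 0.0536, and Tbx21, the gene of T-bet, one of -0.25 at 0.403.

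Of 15 NF-kB subunits and feedback inhibitors tested, 3 rose and 0 fell, with a median of 0.44. Both dKO-labelled libraries lay above both WT libraries for 12 of them, against 22.1% of all genes tested. The number that rose was 1 without dKO-labelled replicate 1, 0 in the fit of all 8 libraries, and 8 and 7 without WT replicates 1 and 2. Nfkbia, which encodes the inhibitor IkB-alpha, itself a target of NF-kB, stood at 79.2 and 82.1 against 138 and 136 CPM (log2 0.77, SE 0.10, adjusted p = 0.00825). Traf1, the gene of a signal adaptor, stood at 47.9 and 45.4 against 72.9 and 81.5 CPM (log2 0.72, SE 0.11, adjusted p = 0.0161). Rel, the gene of the c-Rel subunit, stood at 39.5 and 36.5 against 61.7 and 61.3 CPM (log2 0.69, SE 0.11, adjusted p = 0.0169). Nfkbia and Rel lost their call without dKO-labelled replicate 1 (adjusted p = 0.0715 and 0.0849), as did Traf1 without replicate 2 (0.0643).

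Other lists tied to T cell receptor signals gave few calls. Of 14 AP-1, BATF and MAF factors, 1 rose: Junb stood at 55.0 and 58.0 against 86.2 and 88.9 CPM (log2 0.63, SE 0.10, adjusted p = 0.0199). Its adjusted p was 0.102 and 0.0919 without dKO-labelled replicate 1 and 2, and the abundant gene Prdx2 overlaps it on the opposite strand. Of 11 EGR, NAB, NFAT and TOX factors and of 16 T cell receptor chains and proximal kinases, 0 were called by edgeR, with 2 and 5 at an unadjusted p under 0.05. Those with the smallest p were Nfatc1 (log2 -0.26, adjusted p = 0.322) and Nfat5 (log2 0.29, adjusted p = 0.313) among the former. Among the latter they were Plcg1 (log2 -0.57, adjusted p = 0.241) and Prkcq (log2 -0.34, adjusted p = 0.265). Of the 16 receptor chains and kinases, 11 had both dKO-labelled libraries lower and 2 both higher, against 22.8% and 22.1% of all genes tested. Their median was -0.20.

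Among p53 targets and genes of growth arrest, 6 of 34 tested rose and 1 fell, with a median of 0.26. Among all genes tested 1.05% were called higher and 0.444% lower. Both dKO-labelled libraries lay above both WT libraries for 18 members and below for 7, against 22.1% and 22.8% of all genes tested. Cdkn1a (chromosome 17: 29090976 to 29100727), which encodes the cyclin-dependent kinase inhibitor p21, stood at 27.6 CPM in both WT libraries and at 84.1 and 81.1 CPM in the dKO-labelled ones. It rose 2.99-fold (log2 1.58, SE 0.11, adjusted p = 0.000139). Gadd45g, a stress gene that feeds p38 signals, stood at 14.5 and 11.8 against 42.0 and 51.8 CPM and rose 3.52-fold (log2 1.82, SE 0.16, adjusted p = 0.000727). Both held under each alternative.

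Plk2, the gene of a stress-responsive polo-like kinase, stood at 4.996 and 5.82 against 19.4 and 12.7 CPM (log2 1.61, SE 0.25, adjusted p = 0.017). Phlda3, which encodes a repressor of AKT, stood at 8.28 and 10.5 against 19.8 and 19.0 CPM (log2 1.05, SE 0.17, adjusted p = 0.0207). Their adjusted p was 0.072 and 0.078 without dKO-labelled replicate 1. Pmaip1 and Gadd45b, the genes of the death factor NOXA and a relative of Gadd45g, rose (log2 0.90 and 0.81, adjusted p = 0.0246 and 0.0409), and Sesn3, which encodes a stress sensor, fell (log2 -0.63, adjusted p = 0.0425). Without dKO-labelled replicate 1 the list had 2 members called higher, Cdkn1a and Gadd45g, and 0 lower, so Pmaip1, Gadd45b and Sesn3 lost their calls there. No member was called lower without dKO-labelled replicate 2, under DESeq2, with a replicate block or in the fit of all 8 libraries. Trp53 itself had a log2 fold change of 0.08 and Mdm2, the p53 target that encodes its ubiquitin ligase, one of 0.18, with adjusted p of 0.786 and 0.496.

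Genes of the BCL2 family, for survival and for death, gave 3 calls among 15 tested, all higher. Among all genes tested 1.05% were called higher. Bcl2l1 (chromosome 2: 152780668 to 152831728), the gene of BCL-XL, stood at 37.9 and 39.3 CPM in WT and at 77.1 and 78.2 CPM in the dKO-labelled libraries (log2 1.01, SE 0.10, adjusted p = 0.00177). It held under each alternative, though a predicted gene, Gm32211, overlaps it. Bcl2a1a and Bcl2a1d, near-identical copies of the A1 survival gene between which reads may be split, had log2 fold changes of 0.75 and 0.72 (adjusted p = 0.0171 and 0.0146). Both lost their call without dKO-labelled replicate 1 (0.0926 and 0.074). Bcl2 stood at 252 and 209 against 146 and 161 CPM, with a log2 fold change of -0.59 at an adjusted p of 0.0782.

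Genes of G2 and mitosis were nearly all higher, by modest amounts. Of 60 tested, 59 had a fold change above 0 and 55 had both dKO-labelled libraries above both WT ones, against 22.1% of all genes, while 8 passed the test and none fell. The median log2 fold change was 0.46. Ube2c, the gene of the ubiquitin-conjugating enzyme of the anaphase-promoting complex, stood at 35.1 and 44.6 against 91.0 and 82.9 CPM (log2 1.13, SE 0.13, adjusted p = 0.00378). Plk1, the gene of the mitotic kinase, stood at 17.5 and 15.996 against 29.6 and 32.7 CPM (log2 0.89, SE 0.14, adjusted p = 0.0171). Cdca3 and Hmmr had log2 fold changes of 0.85 and 0.75 (adjusted p = 0.0126 and 0.0169) and lost their call without dKO-labelled replicate 1 (0.0791 and 0.078). The count of called members was 1 in the fit of all 8 libraries, 3 without dKO-labelled replicate 1, and 28 and 36 without WT replicates 1 and 2.

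The other cell cycle lists gave no call. Of 47 DNA replication genes tested 0 were called, with a median of 0.04 and 8 at an unadjusted p under 0.05. Of 29 genes of the G1 cyclins, MYC and E2F 0 were called, with a median of -0.03 and 4 at an unadjusted p under 0.05. Rrm2, a subunit of ribonucleotide reductase, had the smallest p of the first list (log2 0.47, adjusted p = 0.131), and Max that of the second (log2 -0.43, adjusted p = 0.0977).

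Replication-dependent histone genes, which are transcribed in S phase, gave the most calls of the lists examined. Of 60 tested, 15 rose, 0 fell, 48 had both dKO-labelled libraries higher, and the median was 0.70, against 1.05% called higher and 22.1% separated upward among all genes tested. Hist1h2ap stood at 33.6 and 30.4 against 62.9 and 61.3 CPM (log2 0.96, SE 0.11, adjusted p = 0.00365). Hist1h2ag, Hist1h2ao and Hist1h2ac had log2 fold changes of 0.97, 0.95 and 1.00 (adjusted p = 0.00491, 0.00583 and 0.0092). The 15 lie in 2 clusters on chromosome 13, and 12 of them are H2A genes, which are close copies, so reads may be shared among these and the 15 are not independent results. The other 3 are Hist1h1b, Hist1h1e and Hist1h3d. In a fit of all 8 libraries 0 histone genes were called.

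**Figure D3:**
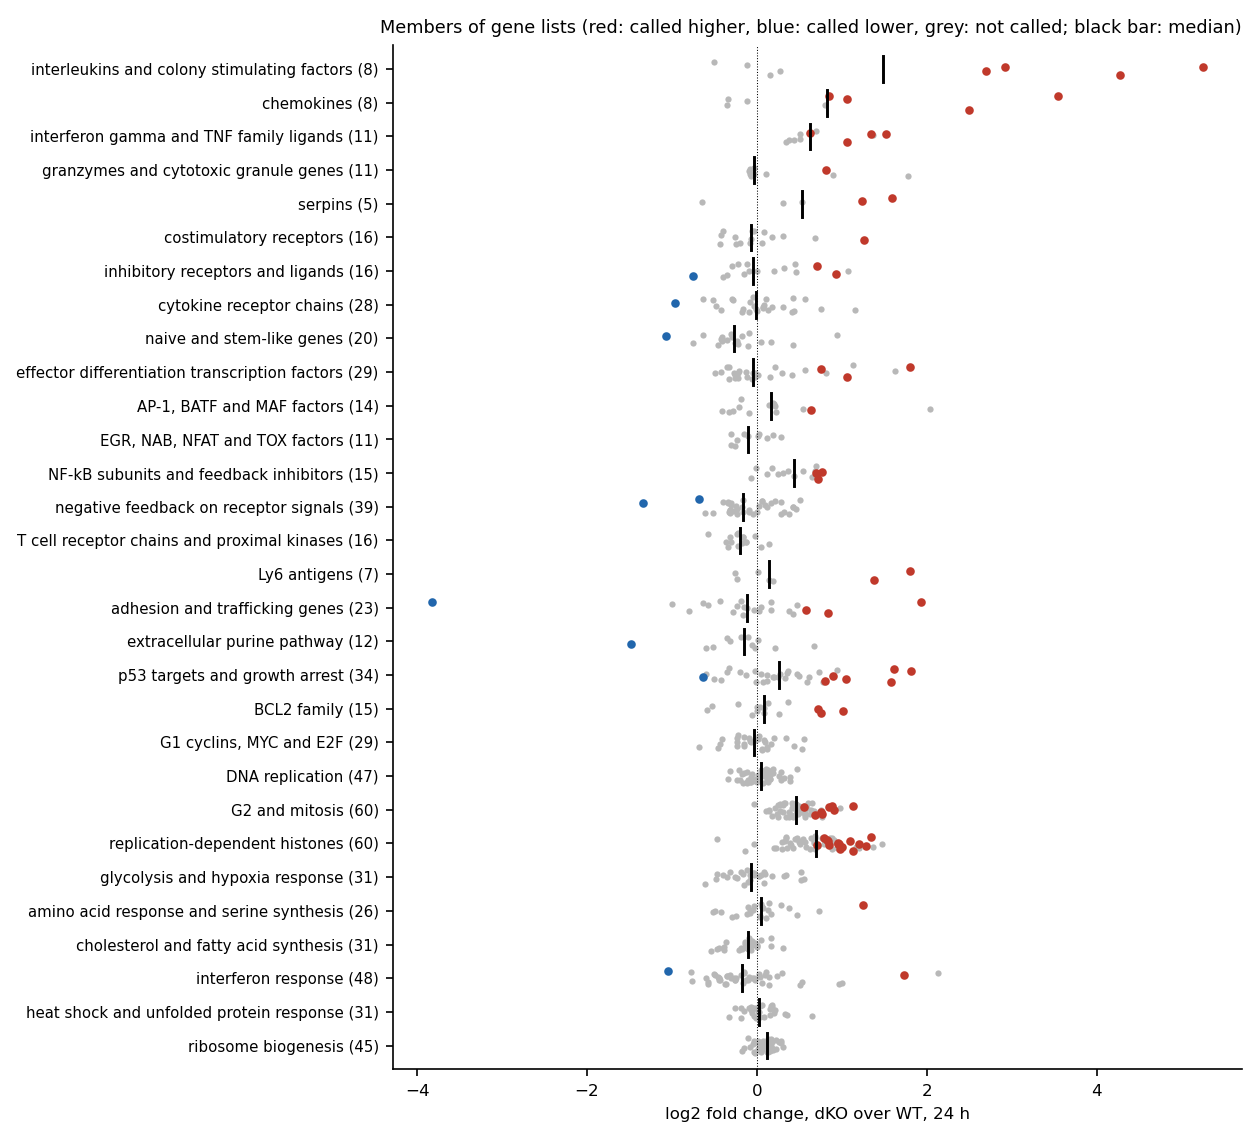
Each point is a tested member of a gene list (number tested in parentheses), placed by its log2 fold change at 24 h, dKO-labelled over WT; red and blue points were called higher and lower, grey points were not called, and black bars are medians. The cytokine and chemokine lists reach furthest right, the G2 and histone lists lie right of 0 nearly throughout, and most other medians lie near 0.

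Genes of naive and stem-like T cells lay mostly below 0. Of 20 tested, 16 had a fold change below 0, 12 had both dKO-labelled libraries lower, against 22.8% of all genes, and 1 fell, with a median of -0.27. Tcf7, whose product TCF1 marks stem-like T cells, stood at 95.7 and 92.7 against 64.3 and 74.0 CPM. Its log2 fold change of -0.45 (SE 0.11) did not pass (adjusted p = 0.102), nor did it without dKO-labelled replicate 1 or 2 (0.669 and 0.214). It passed without WT replicate 1 or 2 (0.0108 and 0.00275). Lef1, Ccr7 and Klf2 had log2 fold changes of -0.35, -0.41 and -0.64 (adjusted p = 0.168, 0.114 and 0.202). The 4 members above 0 included Dapl1 (log2 0.94, adjusted p = 0.0578), Il7r (log2 0.43, adjusted p = 0.35) and Slamf6 (log2 0.05). Called members of this list numbered 6 and 8 lower without WT replicates 1 and 2, and 5 without the genes in proportion to Csrp3.

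Among 39 regulators of negative feedback tested, 2 fell and 0 rose, against 0.444% and 1.05% of all genes tested. Both dKO-labelled libraries lay below both WT libraries for 18 and above for 10, against 22.8% and 22.1% of all genes tested. The median was -0.17, and in edgeR 16 had an unadjusted p under 0.05. Rgs10 (chromosome 7: 128373621 to 128418758), which encodes a brake on G protein signals, stood at 121 and 120 CPM in WT and at 47.7 and 46.9 CPM in the dKO-labelled libraries. It fell 2.54-fold (log2 -1.35, SE 0.10, adjusted p = 0.000283). Dgka, whose enzyme removes the diacylglycerol made by T cell receptor signals, stood at 80.3 and 86.9 against 47.4 and 57.2 CPM (log2 -0.69, SE 0.12, adjusted p = 0.0281). For Dgka the adjusted p was 0.293 without dKO-labelled replicate 1.

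Of 12 genes of the extracellular purine pathway 1 fell. Nt5e (chromosome 9: 88327197 to 88372092), which encodes CD73, the enzyme that makes adenosine outside the cell, stood at 36.7 and 48.3 CPM in WT and at 16.7 and 13.1 CPM in the dKO-labelled libraries. It fell 2.79-fold (log2 -1.48, SE 0.18, adjusted p = 0.00418) and kept its call under each alternative. Both dKO-labelled libraries lay below both WT libraries for 4 members and above for 0, against 22.8% and 22.1% of all genes tested, and the list's median was -0.15.

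Among adhesion and trafficking genes, 3 of 23 rose and 1 fell, against 1.05% and 0.444% of all genes tested. Cd69, the early activation marker that holds cells in tissue, stood at 74.0 and 75.1 against 119 and 102 CPM (log2 0.57, SE 0.11, adjusted p = 0.0472), and lost its call without dKO-labelled replicate 1 or 2 (0.423 and 0.0685). Itgb3, a beta integrin chain below the limit on counts, had 12 and 18 counts in WT and 1 in each dKO-labelled library (ratio 0.0639, exact 95% counting interval 0.00740 to 0.252). Its call was lost without dKO-labelled replicate 1 or 2 (adjusted p = 0.274 and 0.0715), under DESeq2 and in the fit of all 8 libraries. Cxcr3, which also rose, lies on X, and lost its call without dKO-labelled replicate 1 (0.285). Both Ly6c genes of 7 Ly6 antigens tested rose: Ly6c2, a memory-associated surface antigen, stood at 33.7 and 32.0 against 104 and 126 CPM (log2 1.80, SE 0.13, adjusted p = 0.000168). Ly6c1 stood at 16.4 and 14.4 against 39.6 and 40.8 CPM (log2 1.38, SE 0.13, adjusted p = 0.00121). The 2 genes are neighbours and close copies on chromosome 15, so how reads were divided between them is uncertain.

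Several of the largest changes fell outside the lists. Ctse, which encodes the aspartic protease cathepsin E, stood at 1.72 and 2.10 CPM in WT and at 11.5 and 15.0 CPM in the dKO-labelled libraries (log2 2.75, SE 0.28, adjusted p = 0.00168). Pdgfb, a growth factor for mesenchymal cells, stood at 3.28 and 4.36 against 21.6 and 13.7 CPM (log2 2.25, SE 0.28, adjusted p = 0.00508). Cd83, a surface marker of activated lymphocytes and dendritic cells, stood at 3.75 and 4.04 against 16.9 and 13.3 CPM (log2 1.98, SE 0.23, adjusted p = 0.00325). Ifitm2, the gene of an interferon-induced membrane protein, had a log2 fold change of 2.32 (adjusted p = 0.00168). Of the markers of dendritic and myeloid cells 12 of 21 in the table were at 0 in all 4 libraries, Lyz2, Itgax and Spi1 among them. Some others of this list were seen mostly under the dKO label. Fcgr3 had 0 and 0 counts in WT against 15 and 3, and Csf1r 0 and 0 against 5 and 1. Zbtb46 had 0 and 5 against 14 and 8. Cd14, the member with the most counts, had 29 and 23 against 28 and 22, and Xcr1 10 and 10 against 9 and 6. The list's summed level was 7.54 and 8.41 CPM in WT and 12.3 and 11.0 CPM in the dKO-labelled libraries, and their part in these changes was not tested. Gm5779, a predicted gene named here after its values were seen, stood at 0.781 and 0.485 against 23.6 and 24.7 CPM (log2 5.20, SE 0.27, adjusted p = 2.1e-05).

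Metabolic genes were few among the largest rises. Cth, the gene of cystathionine gamma-lyase, which makes cysteine, stood at 1.56 and 1.29 against 8.59 and 6.87 CPM (log2 2.45, SE 0.31, adjusted p = 0.00536). Acsl6, which encodes an acyl-CoA synthetase, stood at 1.09 and 0.646 against 6.92 and 4.65 CPM (log2 2.75, SE 0.41, adjusted p = 0.0132), and its adjusted p was 0.0962 without dKO-labelled replicate 1. Asns, the gene of asparagine synthetase, was the 1 gene called among 26 of the amino acid response, at 7.03 and 7.59 against 15.6 and 19.6 CPM (log2 1.25, SE 0.20, adjusted p = 0.0171). No gene was called by edgeR among 31 of glycolysis and hypoxia, 79 of oxidative phosphorylation, 31 of cholesterol and fatty acid synthesis, 31 of heat shock and unfolded proteins and 45 of ribosome biogenesis. Of those 5 lists 4, 6, 3, 1 and 2 genes had an unadjusted p under 0.05. Their medians were -0.07, 0.15, -0.11, 0.02 and 0.12. In the same order, 12, 69, 6, 17 and 37 genes had a fold change above 0. Both dKO-labelled libraries lay above both WT libraries for 4, 29, 1, 12 and 26 genes, against 22.1% of all genes tested. They lay below for 11, 2, 10, 5 and 2, against 22.8%. Of 83 cytosolic ribosomal protein genes 1 was called, Rps4l, a copy of Rps4x whose reads may be shared with it (log2 1.87, adjusted p = 0.0376). Its call was lost under DESeq2 and in the fit of all 8 libraries. Of the 83, 68 had a fold change above 0, with a median of 0.13. Both dKO-labelled libraries were higher for 10 of them and lower for 4.

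Of the 48 interferon response genes tested 2 were called, in opposite directions, with a list median of -0.18. Both dKO-labelled libraries lay below both WT libraries for 19 and above for 10, against 22.8% and 22.1% of all genes tested. In edgeR 18 had an unadjusted p under 0.05. Without a filter 3 were called higher and 8 lower, and without the genes in proportion to Csrp3 2 and 5. The fit of all 8 libraries called 0 in either direction. Ifih1, which encodes the RNA sensor MDA5, stood at 2.81 and 2.75 against 10.9 and 7.08 CPM (log2 1.73, SE 0.30, adjusted p = 0.0243). Ifi203, the other, belongs to the Ifi200 cluster of DNA sensor genes on chromosome 1, where Ifi209 and Mndal fell too. Ifi209 (chromosome 1: 173630917 to 173647928) stood at 25.3 and 20.4 CPM in WT and at 5.25 and 7.08 CPM in the dKO-labelled libraries (log2 -1.93, SE 0.21, adjusted p = 0.00234). Ifi203 and Mndal had log2 fold changes of -1.04 and -0.99 (adjusted p = 0.0368 and 0.0388). In the same cluster Aim2 rose (log2 0.77), and Ifi204 had a log2 fold change of 2.13 at an adjusted p of 0.0536. Of the others that did not pass, Mnda had a log2 fold change of 0.07. Pydc4, Pydc3, Ifi208 and Ifi214 lay below 0, at -2.01, -1.79, -1.74 and -1.13. These genes are close copies, Ifi203 and Mndal overlap on 1 strand, and reads may be split among them. The adjusted p of Ifih1, Ifi203 and Mndal was 0.168, 0.17 and 0.164 without dKO-labelled replicate 1.

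Other genes that fell have varied roles. Ddc, which encodes aromatic L-amino acid decarboxylase, stood at 9.68 and 8.89 CPM in WT and at 2.50 and 3.23 CPM in the dKO-labelled libraries (log2 -1.73, SE 0.25, adjusted p = 0.0126). Trpm1, a cation channel gene, stood at 9.06 and 7.43 against 2.86 and 2.22 CPM (log2 -1.65, SE 0.27, adjusted p = 0.0199). Crip1, the gene of a small LIM protein, stood at 83.5 and 55.6 against 32.1 and 36.6 CPM (log2 -1.03, SE 0.18, adjusted p = 0.0279). Without dKO-labelled replicate 1 their adjusted p was 0.078, 0.0505 and 0.0926. Tmem254a and Tmem254c, close copies on chromosome 14, had log2 fold changes of -1.04 and -1.38, and Entpd4, which overlaps the predicted gene Gm16867, one of -1.26. The adjusted p of these 3 was 0.0359, 0.0092 and 0.0199, and 0.103, 0.0505 and 0.0791 without dKO-labelled replicate 1.

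The 5 Mb on either side of the targeted genes held few calls. Of 90 genes tested whose start lies within 5 Mb of that of Nr4a1, 1 fell and 0 rose, with a median of -0.07. This was Spats2 (chromosome 15: 99125916 to 99213215), the gene of a cytoplasmic RNA-binding protein, which starts 2.13 Mb away and fell the most of all described genes. It had 40 and 44 counts in WT and 3 and 6 in the dKO-labelled libraries (log2 -3.26, SE 0.43, adjusted p = 0.00721). Of 23 genes within 5 Mb of Nr4a2, 1 fell and 0 rose. Of all genes tested 0.444% were called lower and 1.05% higher, and any link of these single calls to the targeted genes was not tested. The call near Nr4a2 was Cytip, an adhesion regulator that starts 1.02 Mb away, at 91.0 and 93.2 against 56.9 and 55.4 CPM (log2 -0.71, SE 0.10, adjusted p = 0.0114). It lost its call without dKO-labelled replicate 1 or 2 (adjusted p = 0.0926 and 0.0744), whereas Spats2 kept it.

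**Figure D4:**
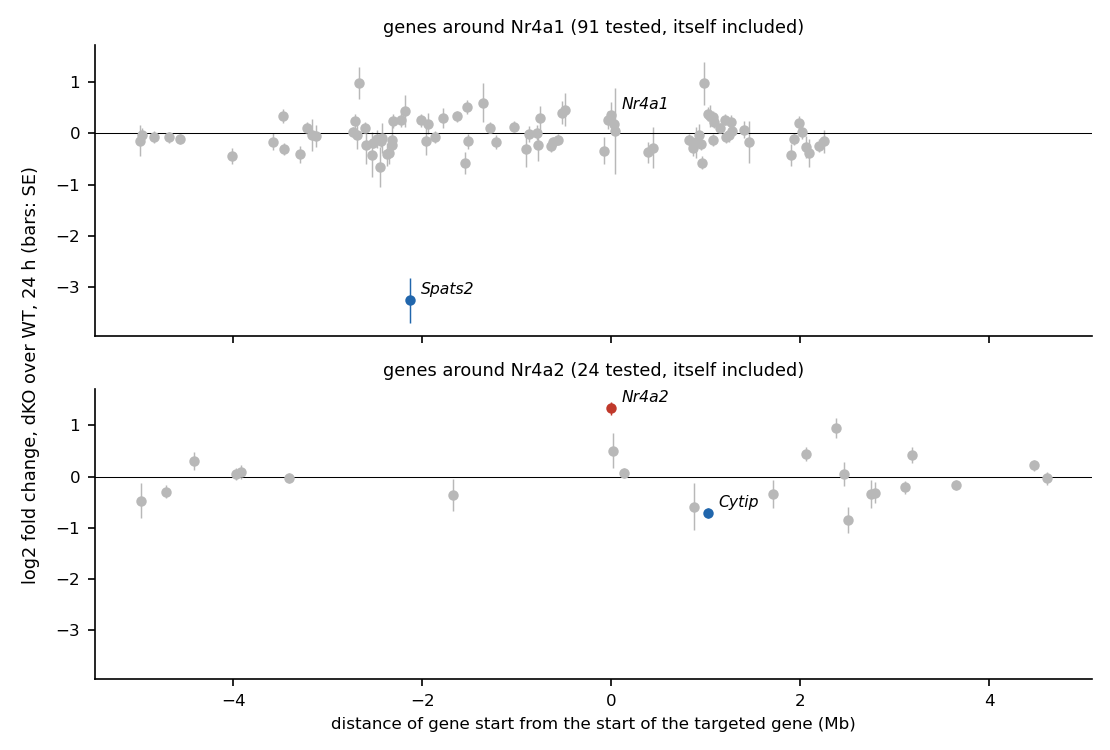
Log2 fold change at 24 h, dKO-labelled over WT, with its SE as a bar, of each tested gene within 5 Mb of Nr4a1 (upper, 90 genes and Nr4a1) and Nr4a2 (lower, 23 genes and Nr4a2), by the distance of its start in Mb. Spats2 stands alone at -3.26, and Nr4a2 itself lies at 1.33.

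Changed genes often lay near one another. A called gene started within 500 kb of 31.3% of the 166 called autosomal genes, and of 24.5% of the 151 that are no histones, against 11.8% of the 11433 tested autosomal genes. Csf2, Il3 and Acsl6 form 1 such run on chromosome 11 in which all 3 tested genes rose. Of these, Csf2 and Acsl6 had enough counts to be tested only through the dKO-labelled libraries. Ccl9, Ccl3 and Ccl4 form another on the same chromosome, Serpinb6b and Serpinb9 one on chromosome 13 and Tnf and Lta one on chromosome 17. On chromosome 9, by contrast, Nt5e fell while Bcl2a1a and Bcl2a1d nearby rose. Families of related genes lie in clusters, so the shares are a description of these calls.

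The genotype difference at 24 h was set beside that at 48 h in a fit of all 8 libraries. Of 12742 genes tested for a change of the difference between the times, 0 were called by edgeR (0%), with 1575 at an unadjusted p under 0.05, and DESeq2 called 0, with 932. The smallest adjusted p was 0.369. The WT libraries at 48 h differ from each other more than any other pair of replicates (median absolute log2 difference 0.364 against 0.149 to 0.195), and the genes in proportion to Csrp3 took 27.9% and 29.0% of their counts. Without replicate 1 of them the test called 3459 genes (1538 with a higher and 1921 with a lower value at 48 h), without replicate 2 it called 21, and without WT replicate 1 at 24 h it called 141.

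Single genes show how the difference at 24 h compared. Il3, at 96.6 and 78.0 CPM in the dKO-labelled libraries at 24 h, stood at 20.99 and 16.4 CPM there at 48 h and at 4.27 and 2.32 CPM in WT. Its log2 fold change was 2.64 (SE 0.28) at 48 h, beside 4.29 at 24 h in the same fit (unadjusted p of the difference 0.00212). Ccl1 stood at 4.61 and 4.74 against 26.1 and 22.1 CPM at 48 h, with a log2 fold change of 2.35 beside 3.56 (unadjusted p 0.000365). Cdkn1a had one of 0.56 beside 1.601 (unadjusted p 0.000298), and Klrd1 one of -0.27 beside -1.14 (unadjusted p 0.0167). For each of these 4 the adjusted p of the difference was 0.369, so none passed.

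For other genes the 48 h value lay at least as far from 0 as the 24 h value. Ctse had a log2 fold change of 3.46 (SE 0.29) at 48 h beside 2.79, Ly6c2 one of 2.19 (SE 0.22) beside 1.83, and Nt5e one of -1.66 (SE 0.24) beside -1.47. Spats2 had -3.34 (SE 0.49) beside -3.22. Of 79 named autosomal genes that were described and called at 24 h, 77 had the same direction at 48 h and 60 were nearer 0. These 79 were chosen on their 24 h values, which by itself favours smaller values at 48 h.

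**Figure D5:**
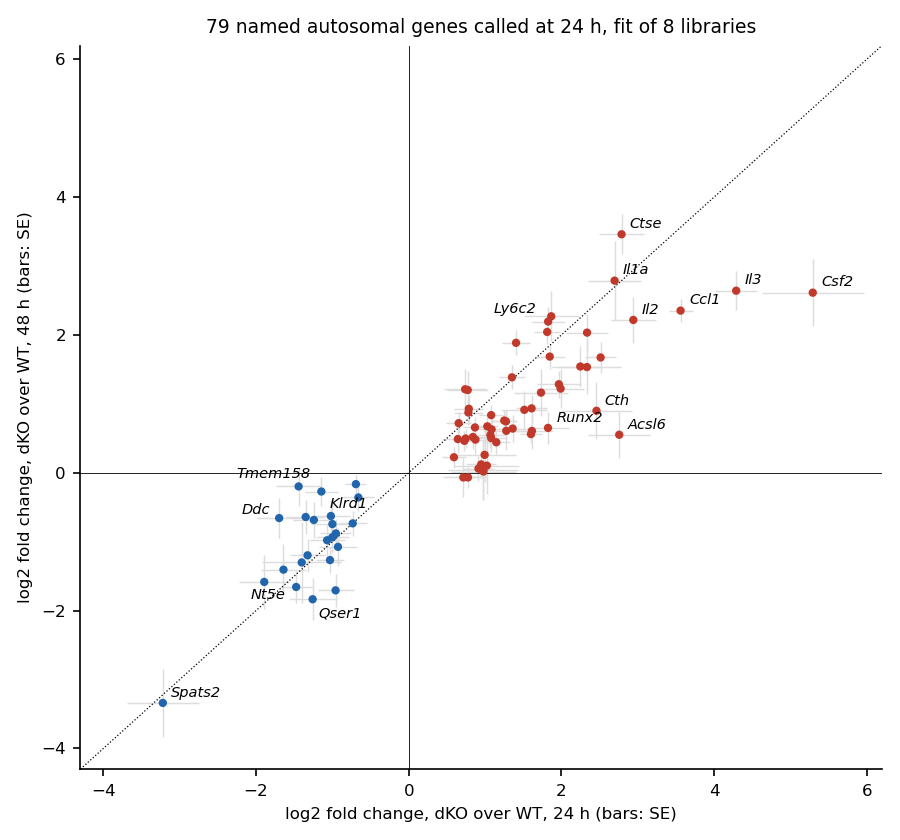
The log2 fold change, dKO-labelled over WT, at 24 h (horizontal) and 48 h (vertical), with SE bars, of 79 named autosomal genes called at 24 h, from 1 fit of 8 libraries; the dotted line marks equal values. Most red points (higher at 24 h) lie under the line, with Il3, Csf2 and Ccl1 far below it, while Ctse lies above it and Spats2 near it.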

How the data were processed

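Bulk RNA of mouse CD8+ T cells was sequenced as 8 libraries, and the 4 libraries at 24 h were analysed here, with those at 48 h for 1 comparison. The deposited table holds raw counts, 1 row a gene symbol; the unit was checked on the values. Per the submitters' processing notes, cutadapt 1.18 and Bowtie2 2.2.5 were used, with the build mm10; for the counting program, its annotation, strand rule and any molecular identifiers the entry is "not given in the sources used here". A nameless entry, which equals the column total (50.0% of each column sum), was dropped, and 0 value columns were left unmapped.

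The counts were tested with the two-sided quasi-likelihood F test of edgeR 4.0.16 (R 4.3.3) on the 4 libraries at 24 h, a mean per label, with TMM scaling (factors 0.931 to 1.07). The filterByExpr function with a minimum count of 10 kept 12149 genes. Genes were called at a Benjamini-Hochberg adjusted p below 0.05. The fit had 2 residual and 7.17 prior degrees of freedom, and each SE was taken from the log2 fold change and F, as the size of the former divided by the root of the latter. The fit of 8 libraries had 4 and 5.76. The script was tested on simulated data. Precision is limited by 2 libraries per group. Positions came from GENCODE M21 (19949 symbols) and, where it lacks the symbol, RefSeq (23533 of 24976 in all); promoters came from RefSeq.

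The members, the 40 gene lists, the motifs and the choice of a fit without the 48 h libraries were made with earlier results of these data known. Promoters were shown for 4 genes; that of Ifng was scanned, held no match and was left out after that was seen. By rule the text may name the NR4A genes and Tcf7, up to 20 called described genes per direction with the largest change and a symbol of their own, from each list up to 4 called members by smallest p (or 2 where 0 were called), called genes within 5 Mb of Nr4a1 or Nr4a2, and up to 10 genes called between the times, of which there were 0. Some genes that the rule names are not reported here. Other names and values, such as further list members, were chosen after their values were seen. Alternatives were library size scaling, DESeq2 1.42.0, no filter, a mean of at least 50 counts, all 8 or 6 libraries, a replicate block, no genes on X and Y, and leaving out each library. Leaving out genes in proportion to Csrp3 (mean of at least 200 counts, and a root mean square deviation of log2 CPM from its profile under 0.25) was chosen after seeing the data.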

Additional observations from a re-analysis of the deposited data

How the results depend on the processing

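Against 127 genes called higher and 54 lower at 24 h, the counts were 209 and 118 with library size scaling alone, 303 and 262 without a filter, and 217 and 131 in a fit of 6 libraries without WT at 48 h. They were 46 and 9 in a fit of all 8 libraries, and 210 and 134 without the genes in proportion to Csrp3. DESeq2 called 99 and 29, and a minimum mean of 50 counts gave 91 and 33. Leaving out single 24 h libraries gave 70 to 607 higher and 16 to 702 lower. Of all calls 35.1% were higher without WT replicate 2 and 67.0% without WT replicate 1. For the change of the difference between 24 and 48 h, 0 genes were called, against 170 without a filter and 0 to 3459 when single libraries were left out. Causes of these shifts were not tested. With a replicate block 117 and 44 genes were called, and 0 between the times. The labels share only replicate numbers, the differences between replicates of WT and dKO at 24 h correlated at r = -0.076 over genes, and the calls of Ccl3, Ccl4, Tnf, Gzmb, Junb, Cxcr3 and Cd69 were lost under the block. Of 111 named genes 43 kept direction and side of the threshold under all alternatives run for them, and 1 reversed: Nr4a1, at -0.044 without WT replicate 2, and 0.90 and called without WT replicate 1. With 2 libraries per label at 5000952 to 8278058 counts, small differences of genes with few counts were not detectable.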
